A study of Homo sapiens with 40 samples.

Results

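The 30 genes of cholesterol synthesis and its SREBP control were examined in differentiated HepaRG cells. They were chosen by gene name from a fixed list, among the 56568 gene names of the deposited tables, and every transcript that carried a name was summed. The list holds 8 genes of the mevalonate steps, 3 from squalene to lanosterol, 9 from lanosterol to cholesterol, 5 of SREBP control and 5 of sterol transport, storage and efflux. RNA sequencing covered 8 groups of 5 libraries each. They were a solvent control, 3 concentrations of PCB 126 (100 pM, 10 nM, 1 µM), 3 doses of glyphosate (0.1 g/L, 1 mg/L, 10 µg/L) and 10 µg/L of Roundup, a formulated glyphosate herbicide. All groups, the control included, were kept from day 8 to day 14 in Williams' E medium with 2% fetal bovine serum and 1% DMSO, so each exposure lasted 6 days on top of the solvent. PCB 126 is a dioxin-like biphenyl that activates the aryl hydrocarbon receptor. HepaRG is 1 human hepatic cell line whose differentiated cultures mix hepatocyte-like and primitive biliary cells. The same 5 control libraries served both the PCB 126 and the herbicide comparisons, which therefore are not independent of each other.

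Liver cells build cholesterol from acetyl-CoA through mevalonate, farnesyl diphosphate, squalene and lanosterol. The membrane-bound factor SREBP-2, the product of SREBF2, drives most enzymes of the route. When sterols are scarce, SCAP carries SREBP from the endoplasmic reticulum to the Golgi for cleavage, and when sterols are plentiful, INSIG1 and INSIG2 hold SCAP back, so the route is under feedback from its product.

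Values are FPKM, fragments scaled to the length of the transcript and to the number of mapped fragments, which allow levels to be compared between genes. The FPKM of all transcripts summed to 255292 to 513059 in a library, and the 75th percentile of gene values above 0 ranged from 2.47 to 5.05. In 9 libraries more than 30% of the read pairs had aligned to more than 1 place, which the alignment summary lists for 38 of the 40 libraries, and these 9 had a member sum of 312 to 483 FPKM against 517 to 865 in the other 31. They were control replicate 5, 2 libraries each of PCB 126 at 10 nM, PCB 126 at 1 µM and Roundup, and 1 each of glyphosate at 10 µg/L and 0.1 g/L. For that reason results are given as deposited and after each library was divided by its 75th percentile (scaled). The 9 hepatocyte markers, ALB and TTR among them, were all detected and summed to 14604 to 21290.0 FPKM in the control, the 6 biliary and progenitor markers to 238 to 469, and the 5 stromal and immune markers to 1.82 to 11.6. CYP1A1, CYP1A2, CYP1B1 and TIPARP, targets of the aryl hydrocarbon receptor, were all higher at 10 nM and at 1 µM PCB 126 by the limma test, and none passed at 100 pM.

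The RefSeq promoter windows of SREBF2, which encodes the main factor of the route, and of HMGCS1 are shown. HMGCS1 had the smallest p of the mevalonate enzymes across the PCB 126 groups by limma but was not called. Each window runs from 250 bases before to 50 bases after an annotated start, written 5′ to 3′ on the gene's strand in build GRCh38.p14. Capitals mark TCACNCCAC, a consensus of the sterol regulatory element, and CCAAT, the NF-Y element, read on either strand. The SREBF2 window lies at chr22:41832855-41833154 on the plus strand and the HMGCS1 window at chr5:43313363-43313662 on the minus strand.
SREBF2: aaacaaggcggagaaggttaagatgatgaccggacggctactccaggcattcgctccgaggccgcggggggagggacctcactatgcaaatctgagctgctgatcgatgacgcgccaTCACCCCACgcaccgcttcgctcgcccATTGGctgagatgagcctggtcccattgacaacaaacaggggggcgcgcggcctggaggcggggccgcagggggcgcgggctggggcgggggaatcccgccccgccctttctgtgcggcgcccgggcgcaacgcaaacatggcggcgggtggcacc
HMGCS1: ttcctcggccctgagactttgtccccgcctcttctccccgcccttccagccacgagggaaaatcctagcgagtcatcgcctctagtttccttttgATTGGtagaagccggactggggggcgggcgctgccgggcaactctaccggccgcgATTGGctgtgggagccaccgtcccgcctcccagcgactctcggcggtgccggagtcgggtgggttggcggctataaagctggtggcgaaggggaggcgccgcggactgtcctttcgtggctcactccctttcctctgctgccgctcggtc

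The SREBF2 window held TCACNCCAC with its first base 133 bases before the start and CCAAT 106 bases before it, both marked above. The HMGCS1 window held CCAAT 155 and 100 bases before the start and no TCACNCCAC. RefSeq gives HMGCS1 a further window, not shown, with neither of these. Windows matched by symbol for 26 of the 30 members (all but ACAT2, FDFT1, SQLE and SOAT2), 34 windows in all. Of those windows 1 (2.94%) held TCACNCCAC, against 1.13% of all 35116 RefSeq windows. CCAAT stood in 58.8% of member windows and 34.6% of all windows. The Sp1 letters GGGCGG stood in 88.2% and 45%, and GCGTG, the core bound by the aryl hydrocarbon receptor (all motifs read on both strands), in 79.4% and 36.5%. GCGTG was found once in the SREBF2 window, where its first base lies within the marked TCACNCCAC match, and not in the HMGCS1 window printed here, the other of the 2 HMGCS1 windows holding it. The set of all windows was not matched to the member windows in base composition, some members had more than 1 window, and no share was tested. A match in letters describes the window and is no evidence of binding.

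In the control group the route was expressed at levels that spanned 4.61 to 71.6 mean FPKM over the 29 members detected there. CYP51A1, the lanosterol demethylase, was highest at 71.6 ± 23.4 FPKM (SD, n = 5). It was followed by MSMO1, the C4 methylsterol oxidase, at 63.4 ± 14.9, by FDFT1, squalene synthase, at 45.9 ± 11.4, and by FDPS, farnesyl diphosphate synthase, at 45.8 ± 22.4. DHCR7, which catalyses the last reduction to cholesterol on 1 branch, HMGCS1, the cytosolic HMG-CoA synthase, and INSIG1 came next at 37 ± 7.54, 36.6 ± 7.57 and 35 ± 8.29. The lowest detected members were HSD17B7, a 3-ketosteroid reductase, at 6.27 ± 2.25, TM7SF2, a C14 sterol reductase, at 5.43 ± 3.6, and MVK, mevalonate kinase, at 4.61 ± 1.11. Each neighbouring pair in this order overlapped over the 5 libraries, so the order of neighbours is not resolved. The order also counts named transcripts only. With assembled transcripts that carry no gene name but span the gene (nameless), the control mean of TM7SF2 would be 14.2. That of FDPS would be 53 and that of INSIG1 47.2, so such places depend on naming. SOAT2, an acyltransferase that esterifies cholesterol, was listed at 0 in all 5 control libraries.

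**Figure D1:**
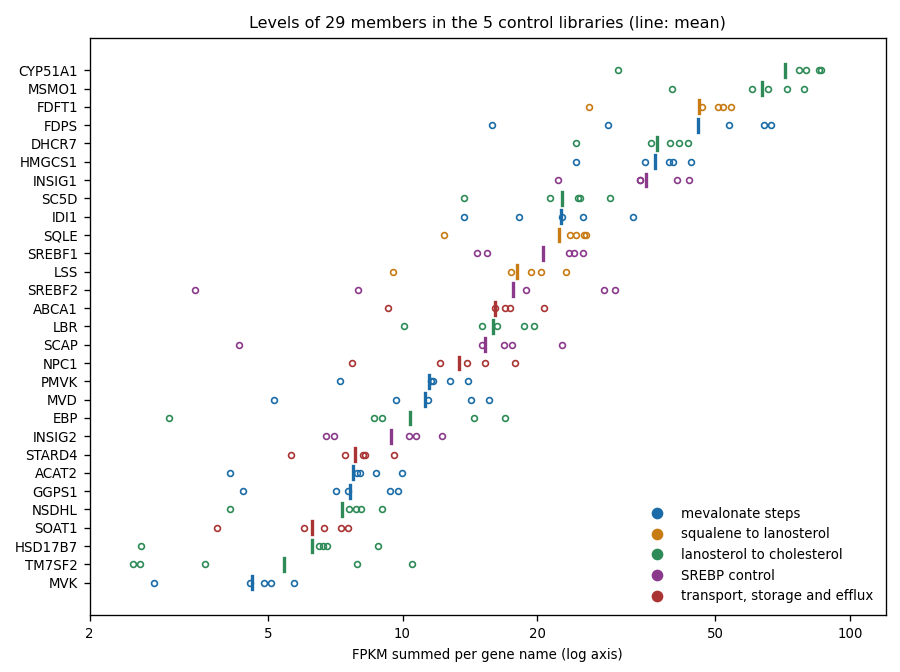
FPKM of the named transcripts of the 29 detected members in the 5 control libraries on a log axis, ordered by the mean (line) and coloured by role. Points are libraries, and nameless transcripts are left out. CYP51A1 stands highest at a mean of 71.6 and MVK lowest at 4.61, with SREBF2, TM7SF2 and EBP the most spread.

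No member of the route was called at any PCB 126 concentration in the values as deposited, and the members' median difference lay close to that of all genes. Of the 30 members 29 passed the filter on variance (SOAT2 did not), and none had an adjusted p under 0.05 by limma across the 4 PCB 126 groups, where 1.39% of the 9755 tested genes did. In that F-test 1 member, LBR, had an unadjusted p under 0.05 (background 9.56%), and LBR was called after scaling (background 4.95%) and after quantile normalization (7.32%). At 1 µM 0 of 29 were called against a background of 1.87%, at 10 nM 0 of 29 against 0.205%, and at 100 pM 0 of 29 against 0%. At an unadjusted p under 0.05 there was 1 member at 1 µM, LBR, and 0 at the lower concentrations, where all genes stood at 13.6%, 4.85% (10 nM) and 1.19% (100 pM). The control and exposed libraries overlapped for all 29 members at each concentration, while 2.35% of all genes did not overlap at 1 µM, 0.513% at 10 nM and 0.164% at 100 pM. After scaling LBR was called at 1 µM, and quantile normalization called LBR and NPC1 there, where 11.1% of all genes were called. The median log2 difference of the members was -0.25 at 1 µM, -0.14 at 10 nM and 0.10 at 100 pM, beside -0.26, -0.21 and 0.07 over all tested genes. Scaling brought these to -0.10, -0.0043 and 0.16, beside -0.12, -0.082 and 0.13.

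The precision of these differences was set by 5 libraries a group. The 95% interval of a member's log2 difference had a median half-width of 0.62 in the PCB 126 fit and 0.56 in the herbicide fit, and of 0.45 and 0.26 after scaling. All differences are on the log2(FPKM + 1) scale, which understates changes of low genes, and p-values measure the spread between libraries, since the labels do not say that these came from separate cultures. In bulk RNA, fewer cells of a type and less RNA per cell cannot be told apart. The sum over all members was 374 to 729 FPKM in the control and 335 to 759.9 at 1 µM, and the scaled mean sums were 572 ± 62.7 and 571 ± 84.4 (SD, n = 5 each). Marker sums of the culture differed at 1 µM in the values as deposited. The hepatocyte sum was 5714 to 14519.9 FPKM and the biliary and progenitor sum 132 to 226, both below the control ranges. For the hepatocyte sum the gap was small, since the lowest control library had 14603.6. TTR and FGB were called lower (adjusted p = 0.00797 and 0.0259, limma), where 1.87% of all genes were called. As deposited, 79.2% of all genes were lower at 1 µM, and 2 libraries there were over the limit on multiply aligned pairs. Scaled marker sums are not given, so a difference of these sums beyond that of all genes was not shown. The part of the marker differences in the values of the members at 1 µM was not tested.

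**Figure D2:**
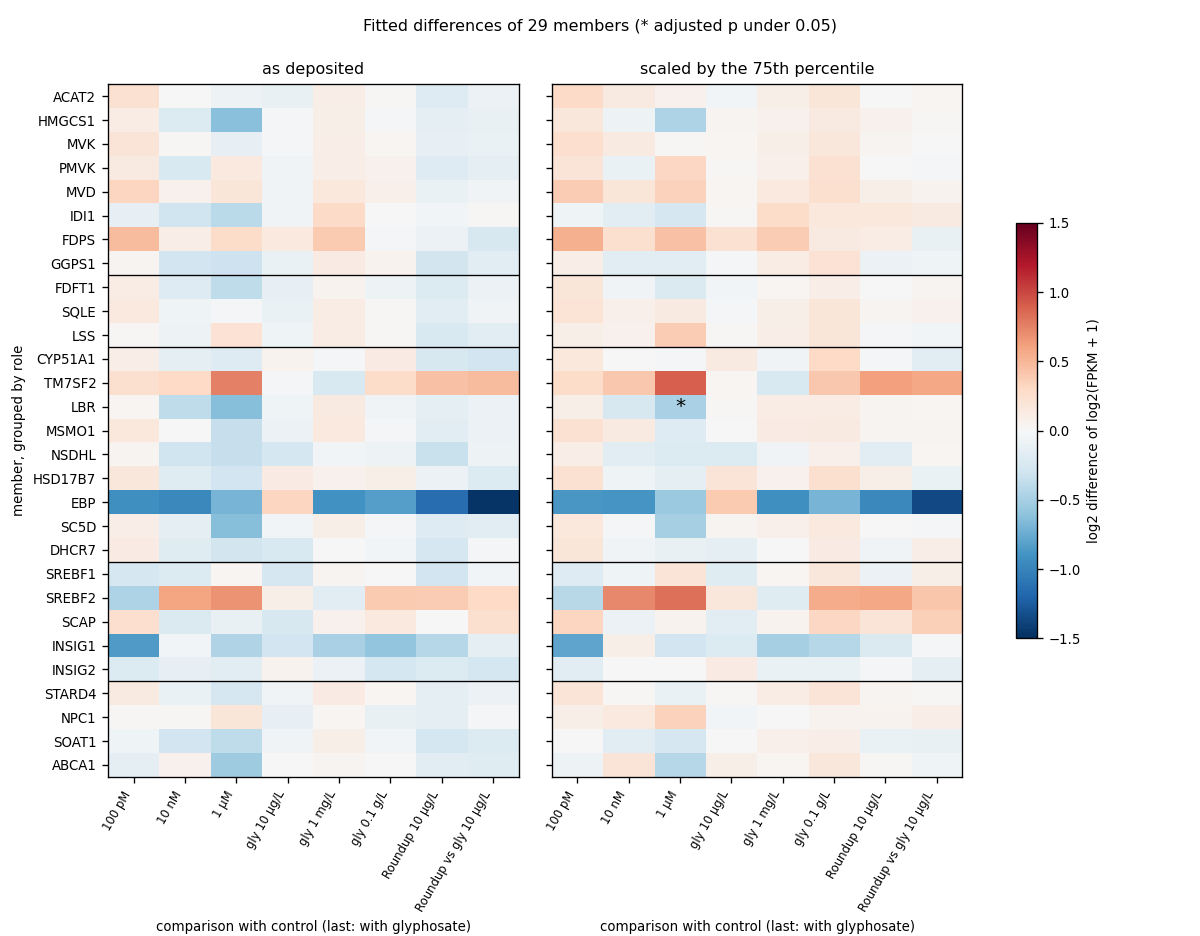
Log2 difference of each of 29 members (rows, grouped by role) in 8 comparisons (columns), as deposited and scaled, with colour from -1.5 to 1.5 and an asterisk at an adjusted p under 0.05. The only asterisk is LBR at 1 µM after scaling, and as deposited the values run from -1.47 (EBP, Roundup against glyphosate) to 0.75 (TM7SF2, 1 µM).

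In the mevalonate steps, HMGCS1 was the member with the smallest p. HMGCS1, which joins acetyl-CoA and acetoacetyl-CoA (chr5:43289395-43313512, minus strand), read 40.3, 39.3, 34.8, 44 and 24.4 FPKM in the control and 9.83, 29.9, 25.5, 39.9 and 20.7 at 1 µM PCB 126. At 10 nM it read 34.6, 37.9, 17.3, 59.2 and 20.5, and at 100 pM 32.5, 41.1, 33.3, 49.6 and 40.4. The 1 µM values were lower in part, since 2 of 5 lay below the lowest control library, and the groups overlapped at every concentration. The log2 difference at 1 µM was -0.62 (SE 0.33, adjusted p = 0.41, limma) and -0.46 after scaling (adjusted p = 0.277). Without 1 µM replicate 1, a library over the 30% limit that held the lowest HMGCS1 value of all 40 libraries, the difference was -0.34. The other 7 enzymes of these steps showed 3 differences above 0 at 1 µM (PMVK, MVD and FDPS) and the rest below, and the group median was -0.10, or 0.041 scaled, none of the 8 being called. For FDPS the direction depended on naming. Its named mean was 45.8 in the control and 50.6 at 1 µM, and with nameless transcripts that span it 53 and 50.8.

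FDPS, which makes farnesyl diphosphate, was among the 8 members with the smallest p across the herbicide groups. It read 64.2, 15.9, 53.6, 66.4 and 28.8 FPKM in the control, 63.9, 53.5, 44.8, 46.3 and 25 with glyphosate at 10 µg/L and 64.4, 58.2, 46.4, 68.3 and 36.7 at 1 mg/L. At 0.1 g/L it read 58.9, 30.2, 57.6, 18.7 and 48.7, and with Roundup 33, 59.3, 51, 44.7 and 16.9. Control libraries alone spanned most of the range, from 15.9 to 66.4, and the log2 difference at 1 mg/L was 0.40 (SE 0.37, adjusted p = 0.963, limma). Control replicate 2, the lowest, held most of its FDPS signal in nameless transcripts that span the gene. With these the control read 64.6, 51, 53.7, 66.9 and 29, its coefficient of variation went from 49% to 28.4%, and the means were 53 in the control and 56.7 at 1 mg/L. GGPS1, geranylgeranyl diphosphate synthase, had 9.39, 9.78, 7.57, 7.11 and 4.41 in the control and 8.13, 8.67, 5.53, 5.08 and 3.69 with Roundup. With glyphosate it had 7.8, 9.05, 6.35, 7.67 and 4.27 at 10 µg/L, 8.45, 8.3, 8.12, 9.1 and 7.05 at 1 mg/L and 8.7, 5.04, 8.7, 9.75 and 7.37 at 0.1 g/L. All herbicide groups of GGPS1 overlapped the control, and the Roundup difference was -0.27 (SE 0.24, adjusted p = 0.902, limma).

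The remaining mevalonate enzymes are given by the range of their 8 group means. IDI1, isopentenyl diphosphate isomerase, had group means of 17.2 to 27.4 FPKM, PMVK, phosphomevalonate kinase, 9.84 to 13, and MVD, mevalonate diphosphate decarboxylase, 10.2 to 13.7. MVK, mevalonate kinase, had 4.14 to 5.36 and ACAT2, the cytosolic acetoacetyl-CoA thiolase, 6.78 to 9.03. Between squalene and lanosterol, FDFT1 had group means of 38.1 to 48.6, SQLE, squalene epoxidase, 20.0 to 24.2, and LSS, lanosterol synthase, 15.4 to 20.7. The 3 differences at 1 µM were -0.38, -0.021 and 0.22, adjusted p 0.611, 0.98 and 0.705 by limma. SQLE passed at 1 µM under a single alternative, a linear model without moderation that holds a term for library size (0.28, adjusted p = 0.0373), and its sign as deposited was the opposite one. After scaling, MVK and DHCR7 did not overlap the control at 100 pM PCB 126, 2 of 29 members where 2.09% of all genes did not. MVK then read 3.87, 4.72, 4.38, 4.73 and 3.68 in the control and 5.65, 4.97, 5.48, 4.77 and 5.53 at 100 pM, and DHCR7 35.2, 35.9, 34, 34.6 and 32.4 and 36.7, 39.5, 36, 42.1 and 41.8. Both were slightly higher in all 5 exposed libraries, by 0.25 and 0.18 on the log2 scale, and neither passed the test (adjusted p = 0.924 for each, limma).

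LBR was called lower at 1 µM PCB 126 under 6 of the 13 alternatives tried beside leaving out single libraries. In the values as deposited with all libraries its difference was also below 0 but was not called. LBR, the lamin B receptor (chr1:225401502-225428925, minus strand), is an inner nuclear membrane protein that also reduces the C14 double bond of sterols. It read 18.7, 19.6, 15, 16.2 and 10.1 FPKM in the control and 6.71, 11, 9.73, 12.8 and 8.96 at 1 µM PCB 126. The 100 pM libraries read 13, 17.9, 16, 18.7 and 14.8, and those at 10 nM 13.4, 13.3, 7.77, 18 and 8.86. As deposited, 3 of 5 libraries at 1 µM lay below the lowest control library and the groups overlapped, with a log2 difference of -0.64 (SE 0.25, adjusted p = 0.237, limma). After scaling it read 15.8, 16.2, 12.9, 15.6 and 13.3 in the control and 9.56, 10.5, 9.58, 11.3 and 10.3 at 1 µM, all 5 below all control values, a separation seen in 6.97% of all genes. The scaled difference was -0.49 (SE 0.13, adjusted p = 0.0314, limma), and after quantile normalization -0.44 (adjusted p = 0.00401). Libraries over the 30% limit in this fit were 1 of the control, 2 at 10 nM and 2 at 1 µM. Leaving them out, so that fewer than 5 libraries stood on either side, gave -0.60 as deposited (adjusted p = 0.0422, limma). The scaled value was then -0.49 (adjusted p = 0.0297, limma). The other 2 of the 6 were the linear model with a library-size term and scaling with a block for the run of library numbers. LBR was 1 of 29 members called at 1 µM on scaled values, against 6.07% of all tested genes, a share of the members no larger than the background.

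The scaled LBR values at 10 nM were 12, 12, 13.1, 16.5 and 8.89 and at 100 pM 14.9, 15.8, 14.3, 15.7 and 18.5, with differences of -0.24 (adjusted p = 0.742) and 0.093 (adjusted p = 0.924, limma). The 10 nM libraries lay between the other groups in part, with a spread that overlapped both the control and the 1 µM values. In the 4 herbicide groups the scaled LBR differences ran from 0.013 to 0.12. The annotated transcript ENST00000272163 carried 81.4% of the LBR FPKM, and no nameless assembled transcript spanned the gene.

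TM7SF2 encodes the other C14 sterol reductase, on chromosome 11, and its values differed in the opposite direction from those of LBR without passing the test. It read 2.5, 7.92, 10.5, 3.62 and 2.59 FPKM in the control and 6.46, 11.2, 12.1, 12.8 and 3.86 at 1 µM. The log2 difference was 0.75 (SE 0.44, adjusted p = 0.454) and 0.90 scaled (adjusted p = 0.202, limma). Control and 1 µM values overlapped, so no opposite response of the C14 reductases was shown. In the herbicide groups TM7SF2 read 5.66, 2.45, 9.76, 8.19 and 1.39 with glyphosate at 10 µg/L, 7.57, 1.24, 1.37, 7.9 and 5.6 at 1 mg/L and 9.79, 1.66, 4.16, 11.8 and 7.19 at 0.1 g/L. With Roundup it read 14.3, 10.5, 6.25, 5.34 and 2.42, and each herbicide group overlapped the control. In the control, transcripts assembled without a name that span TM7SF2 and the neighbouring VPS51 held 61.7% of the summed FPKM, and with them TM7SF2 would be 14.2 ± 3.5 in the control and 16.7 ± 5.58 at 1 µM (SD, n = 5 each).

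SC5D and NSDHL also ranked in the first 8 members by the PCB 126 F-test, and neither was called. SC5D, the sterol C5 desaturase, read 29, 24.6, 21.3, 25 and 13.8 FPKM in the control and 2.64, 24.6, 19.9, 22.3 and 14.5 at 1 µM. Libraries at 10 nM had 24.1, 23.6, 10.5, 32 and 16 and those at 100 pM 21.5, 25.1, 22, 27.6 and 23.2. Replicate 1 at 1 µM was the lowest SC5D value of that group, and without it the log2 difference of -0.64 (SE 0.39, adjusted p = 0.476, limma) became -0.14. NSDHL, the C4 demethylating dehydrogenase, read 8.1, 7.6, 8.99, 7.87 and 4.12 in the control and 3.06, 6.48, 7.06, 7.35 and 4.17 at 1 µM. At 10 nM NSDHL read 7.07, 6.35, 3.05, 9.68 and 4.01, and at 100 pM 6.9, 8.32, 7.09, 8.9 and 6.02. Its log2 difference at 1 µM was -0.35 (SE 0.28, adjusted p = 0.566, limma), with overlapping groups at each concentration. In the herbicide groups NSDHL read 7.88, 6.77, 5.31, 8.23 and 2.53 with glyphosate at 10 µg/L, 8.37, 7.31, 5.34, 7.18 and 6.7 at 1 mg/L and 7.95, 4.08, 7.26, 8.16 and 7.02 at 0.1 g/L. With Roundup NSDHL read 8.22, 8.08, 6.17, 4.36 and 2.45, a difference of -0.34 (SE 0.28, adjusted p = 0.902, limma). The group means of the others were 61.5 to 75.4 FPKM for CYP51A1, 54 to 69.7 for MSMO1, 31.9 to 40.1 for DHCR7 and 4.96 to 6.85 for HSD17B7. Over these 9 enzymes 8 had a lower fitted value at 1 µM and 1 a higher one as deposited, where 79.2% of all genes were lower, and 8 were lower after scaling, where 64.9% were.

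**Figure D3:**
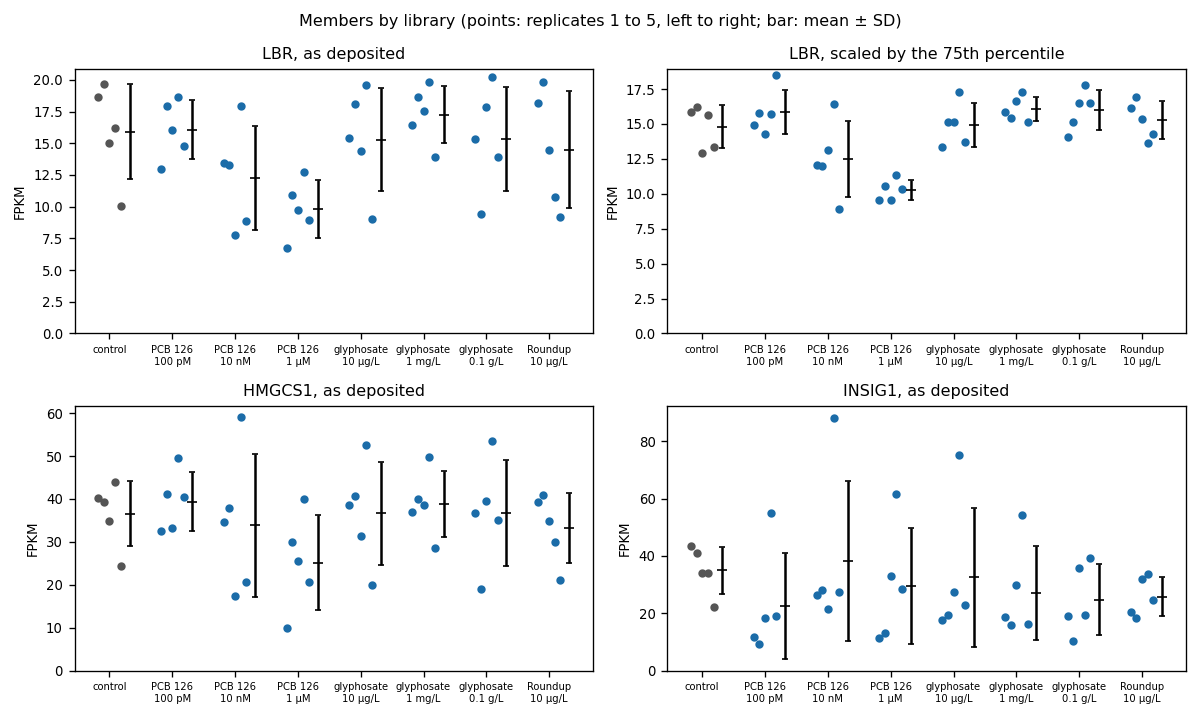
FPKM of LBR (as deposited and scaled), HMGCS1 and INSIG1 in the 8 groups, with 1 point per library and the mean ± SD beside them. Scaled LBR at 1 µM sits wholly below the control, while HMGCS1 and INSIG1 overlap the control in every group.

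EBP had the smallest unadjusted p of any member in the herbicide comparisons, and its values depended on how transcripts were named. EBP, the sterol Δ8-Δ7 isomerase (chrX:48521158-48528716, plus strand), read 3.02, 16.9, 8.62, 14.4 and 9.01 FPKM in the control. With glyphosate it read 22.6, 16.4, 12.1, 5.94 and 7.76 at 10 µg/L, 6.23, 2.32, 11.8, 5.36 and 1.39 at 1 mg/L and 18.7, 2.6, 2.3, 4.14 and 3.97 at 0.1 g/L. With Roundup at 10 µg/L it read 3.47, 3.57, 0.971, 4.7 and 7.79, of which 4 lay below the lowest library of glyphosate at 10 µg/L. The Roundup to glyphosate log2 difference was -1.47 (95% interval -2.46 to -0.48, SE 0.48), and it did not pass over all genes (adjusted p = 0.974, limma). Against control the Roundup difference was -1.15 (SE 0.48, adjusted p = 0.902). In the PCB 126 groups EBP read 8.78, 2.61, 18.9, 2.11 and 1.04 at 100 pM, 6.23, 4.27, 1.44, 3.45 and 7.94 at 10 nM and 10.7, 6.82, 4.85, 5.58 and 1.77 at 1 µM. All 3 groups overlapped the control, with differences of -0.92, -0.97 and -0.69 and adjusted p of at least 0.545 (limma).

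The assembly held transcripts without a gene name that ran with 17 exons from the neighbouring gene PORCN through EBP, from base 48508976 of chromosome X. Summed over all the nameless transcripts that span EBP, these read 10.0, 1.21, 7.1, 1.48 and 0.243 FPKM in the control, 0.043, 0.342, 0.0271, 7.83 and 1.53 with glyphosate at 10 µg/L and 11.3, 7.9, 7.09, 5.18 and 0.686 with Roundup. The control library lowest in named EBP was the highest in nameless transcripts. Named EBP in the control ran from 3.02 to 16.9, a coefficient of variation of 52.3%, which was 23.6% for the sum of both. The summed values were 22.6, 16.7, 12.1, 13.8 and 9.29 with glyphosate and 14.8, 11.5, 8.06, 9.87 and 8.48 with Roundup, which overlapped. At 1 µM PCB 126 the named mean of 5.94 lay below the control mean of 10.4, while the sum of 18.6 ± 5.62 lay above 14.4 ± 3.4 (SD, n = 5 each, overlapping). Fragments of such a span cannot be divided between PORCN and EBP here, so EBP levels are uncertain.

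Neither transcription factor gene was called. SREBF1, which encodes SREBP-1, had 25.4, 15.4, 23.5, 24.1 and 14.6 FPKM in the control and 22.9, 22.7, 23.1, 17.2 and 17.6 at 1 µM PCB 126. At 10 nM it had 21.9, 22.8, 9.87, 22 and 14.1, and at 100 pM 16.3, 27.3, 11.8, 23.4 and 10.5. With glyphosate SREBF1 had 27.2, 15.9, 18.1, 22 and 7.37 at 10 µg/L, 20.3, 17.4, 16.7, 33.2 and 19.4 at 1 mg/L and 24.1, 12.6, 17.4, 31.7 and 19.4 at 0.1 g/L. Roundup libraries had 17.6, 26.6, 15.7, 15.3 and 9.97, and no SREBF1 comparison separated from control, the smallest adjusted p being 0.865 (limma).

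SREBF2, which encodes SREBP-2 (chr22:41833079-41907308, plus strand), had the largest coefficient of variation of any member in the control, 66.9%. It read 28.2, 7.95, 29.9, 3.44 and 18.8 FPKM in the control and 9.69, 30.8, 35.8, 25.6 and 20.8 at 1 µM PCB 126. SREBF2 values were 33.7, 36.6, 17, 9.88 and 20.5 at 10 nM and 3.26, 30.2, 6.29, 25.7 and 4.63 at 100 pM. High and low libraries occurred in each of these 4 groups, and the difference at 1 µM was 0.67 (SE 0.55, 95% interval -0.47 to 1.81, adjusted p = 0.581, limma). With glyphosate SREBF2 read 30.2, 7.98, 5.09, 28.3 and 18.3 at 10 µg/L, 3.48, 8.49, 17.9, 29.2 and 15.5 at 1 mg/L and 35.6, 12.9, 35.1, 5.94 and 20.7 at 0.1 g/L, and with Roundup 16.4, 12.8, 24.4, 23.3 and 17.2. A nameless transcript of 25 exons that runs from the neighbouring gene CCDC134 through SREBF2 read 5.69, 14.4, 3.8, 11.8 and 0.0765 FPKM in the control libraries, and the 2 libraries lowest in named SREBF2 were the 2 highest in it. Together they gave 24.8 ± 8.57 FPKM in the control and 27.7 ± 8.75 at 1 µM (SD, n = 5 each), with a control coefficient of variation of 34.5%.

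**Figure D4:**
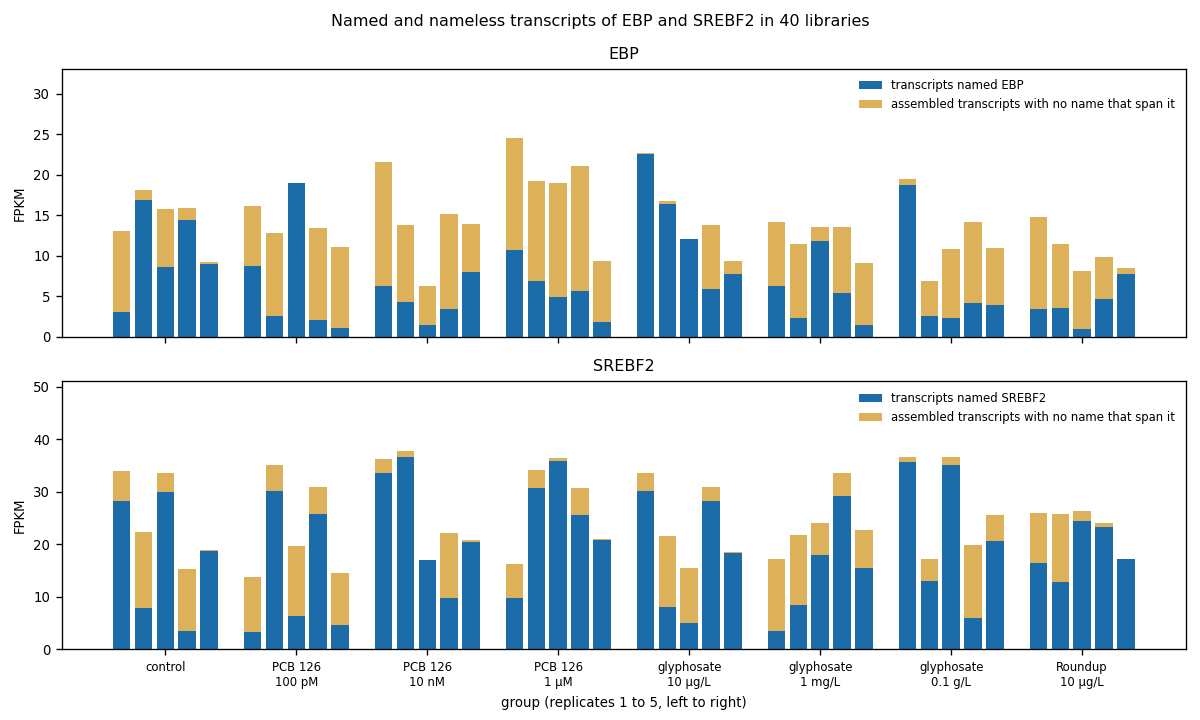
FPKM of transcripts named EBP or SREBF2 (blue) and of nameless assembled transcripts that span them (ochre, stacked), for each of the 40 libraries by group. In the control the lowest blue bars stand under tall ochre ones, and the stacked height varied by 23.6% for EBP and 34.5% for SREBF2 (coefficient of variation).

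INSIG1 and INSIG2, which retain SCAP, were not called in any comparison, and INSIG1 held several single libraries far above the rest. INSIG1 (chr7:155297776-155310235, plus strand) read 43.6, 41.1, 34, 33.9 and 22.3 FPKM in the control and 11.6, 9.2, 18.5, 54.9 and 18.9 at 100 pM PCB 126. At 10 nM it read 26.4, 28.2, 21.4, 88.1 and 27.5, and at 1 µM 11.5, 13.1, 33.1, 61.7 and 28.6. Replicate 4 was far above the rest in all 3 PCB 126 groups, whereas the other 4 libraries at 100 pM lay below the lowest control value for the named transcripts. The difference at 100 pM was -0.85 (SE 0.45, adjusted p = 1, limma) and -1.23 without replicate 4. With glyphosate INSIG1 read 17.8, 19.3, 27.4, 75.2 and 23 at 10 µg/L, 18.8, 16, 29.7, 54.4 and 16.4 at 1 mg/L and 18.9, 10.4, 35.8, 19.6 and 39.3 at 0.1 g/L. With Roundup it read 20.6, 18.3, 31.9, 33.7 and 24.5. The INSIG1 differences at 10 nM and 1 µM PCB 126 were -0.046 and -0.45, those of glyphosate -0.29, -0.48 and -0.59 from the lowest to the highest dose, and that of Roundup -0.43. None of these passed the test, and after scaling the value at 10 nM was 0.093 and that at 100 pM -0.79. These INSIG1 values depended on naming as well. Nameless transcripts that span INSIG1 held 25.9% of its summed FPKM in the control and 51.1% at 100 pM. The sums were 54.2, 50.4, 42.3, 59.1 and 30.03 in the control and 34.6, 37.6, 38.1, 71.8 and 49.1 at 100 pM, so that no 100 pM library lay below the lowest control library. Their means were 47.2 ± 11.4 and 46.2 ± 15.3 (SD, n = 5 each). With glyphosate the nameless share was 28.4%, 42.7% and 43.1% from the lowest to the highest dose. The means of the sums there were 45.4, 47.3 and 43.6, and 40.2 with Roundup, so the order of the named differences by dose depended on naming.

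INSIG2 read 12.3, 6.73, 10.3, 10.7 and 7.04 FPKM in the control, 8.51, 11.3, 11.5, 7.41 and 3.32 at 100 pM and 9.91, 10.2, 5.1, 13.2 and 5.65 at 10 nM PCB 126. At 1 µM it read 6.9, 8.69, 8.27, 11.2 and 6.33. With glyphosate INSIG2 read 6.85, 13.3, 8.81, 13.4 and 7.3 at 10 µg/L, 11.2, 1.68, 12.8, 14.6 and 10.2 at 1 mg/L and 6.47, 7.08, 12.7, 4.98 and 7.97 at 0.1 g/L, and with Roundup 7.51, 7.82, 11, 7.61 and 5.85. Its groups overlapped throughout, and its mean was 9.41 FPKM in the control where that of INSIG1 was 35. INSIG1 values of the control lay above all INSIG2 values of the control. SCAP, the escort of SREBP, had group means of 12.9 to 17 FPKM, and nameless transcripts that span it held 35.3% of the sum in the control.

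None of the transport and storage genes was called in the values as deposited. SOAT1, which esterifies cholesterol in most tissues, read 7.55, 7.28, 6.69, 6.01 and 3.85 FPKM in the control and 2.36, 5.93, 5.13, 5.79 and 4.04 at 1 µM PCB 126. SOAT1 at 100 pM gave 5.46, 6.08, 5.88, 6.55 and 5.14 and at 10 nM 6.22, 5.5, 2.99, 6.54 and 3.84. The 1 µM difference was -0.38 (SE 0.25, adjusted p = 0.498, limma) with overlapping groups. With glyphosate SOAT1 read 7.54, 7.34, 6.01, 6.25 and 3.19 at 10 µg/L, 7.02, 7.27, 6.46, 7.29 and 5.09 at 1 mg/L and 7.12, 3.53, 7.59, 7.09 and 5.17 at 0.1 g/L, and with Roundup 7.06, 7.19, 4.96, 3.67 and 3.00. SOAT2, the isoform of hepatocytes and intestine, was listed at 0 in 29 of 40 libraries, all 5 control libraries among them. It was above 0 in 11 libraries of 7 groups, of which 3 were of glyphosate at 10 µg/L and 2 each of PCB 126 at 10 nM and 1 µM. The highest SOAT2 value was 0.0893 FPKM, at 1 µM PCB 126, while SOAT1 was above 2 FPKM in every library. NPC1, which exports cholesterol from lysosomes, had group means of 12.2 to 15.1 and at 1 µM a difference of 0.19 as deposited (adjusted p = 0.74), 0.34 scaled (adjusted p = 0.153) and 0.39 after quantile normalization (adjusted p = 0.0341, limma). ABCA1, the cholesterol efflux pump, had group means of 14.2 to 17.2, with up to 92.5% of the summed FPKM of a 1 µM library in a nameless transcript, and STARD4, a sterol carrier, 6.62 to 8.64.

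No member was called in any herbicide comparison. By limma 0 of 29 members were called with glyphosate at 10 µg/L (background 0% of 9533 genes), at 1 mg/L (0%) and at 0.1 g/L (0%), and with Roundup (0%) or between Roundup and glyphosate at 10 µg/L (0%). The F-test across the 5 groups also called 0 (0%), with EBP alone at an unadjusted p under 0.05 (background 1.36%). Unadjusted p under 0.05 gave 0, 0 and 0 members for the glyphosate doses, 1 for Roundup and 1 for Roundup against glyphosate, EBP both times. Over all genes that share was 0.997%, 1.31% and 0.881% for the glyphosate doses, 1.73% for Roundup and 1.27% for the direct comparison. The groups overlapped for all 29 members in each of these comparisons, where 0.0524%, 0.178% and 0.0839% of all genes did not overlap for the glyphosate doses, 0.042% for Roundup and 0.105% for Roundup against glyphosate. None of the 13 alternatives, and no left-out library, called a member here. The members' median log2 difference was -0.057 at 10 µg/L, 0.086 at 1 mg/L, 0.0019 at 0.1 g/L and -0.17 with Roundup, where all genes had -0.037, 0.14, -0.014 and -0.18. After scaling the members had 0.02, 0.07, 0.17 and 0.023.

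Roundup and glyphosate alone were both labelled 10 µg/L, and the labels do not say whether the Roundup dose is counted as glyphosate. The scaled differences between them lay between -1.35 (EBP) and 0.58 (TM7SF2) over the members. For HMGCS1 the scaled 95% interval of Roundup minus glyphosate was -0.24 to 0.27, for LBR -0.14 to 0.21 and for SQLE -0.13 to 0.26. For TM7SF2 it was -0.39 to 1.55 and for SREBF2 -0.84 to 1.68, so for these a difference of more than 1 log2 unit is still within the interval. Tests were 2-sided, 29 members were compared within the adjustment over all 9533 genes, and a missed threshold does not show equal levels.

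HMGCS1, IDI1, MSMO1 and INSIG1 were highest in 1 run of library numbers in most groups. The library numbers in the labels fall into 5 runs of 8 consecutive numbers, each holding 1 library of every group, and replicate numbers here follow these runs. In run 4 the members' summed FPKM had a median of 760.5 against 437 to 653 in the other runs, and of 658 against 508 to 606 after scaling. Named INSIG1 had scaled medians of 17.8 and 15.9 in runs 1 and 2, 31 and 31.2 in runs 3 and 5, and 46.8 in run 4. The nameless transcripts that span INSIG1 had medians of 20.2 and 20.6 in runs 1 and 2 and 8.77 in run 3. The sum of both was 39.5, 37.2 and 40.3 in runs 1 to 3, so these runs differed in naming more than in the sum, while run 4 had 62.3 and run 5 44.2. IDI1 had 32.6 in run 4 and 15.8 to 23.7 in the others, HMGCS1 42.9 against 31.5 to 33.9, and MSMO1 73.2 against 56.2 to 61.4. Run 4 held the highest library of a group in 7 of 8 groups for HMGCS1 and for IDI1, and in 6 of 8 for MSMO1 and for INSIG1. With spanning transcripts added run 4 was highest in 7 groups for HMGCS1, 8 for IDI1, 6 for MSMO1 and 6 for INSIG1. For named transcripts it was so in at least 5 groups for 6 of 29 members (20.7%), the others being MVK and LBR, beside 2.28% of all tested genes. These counts were made after the values were seen and carry no test, and each run holds every group once. What a run stands for is not stated in the labels.

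**Figure D5:**
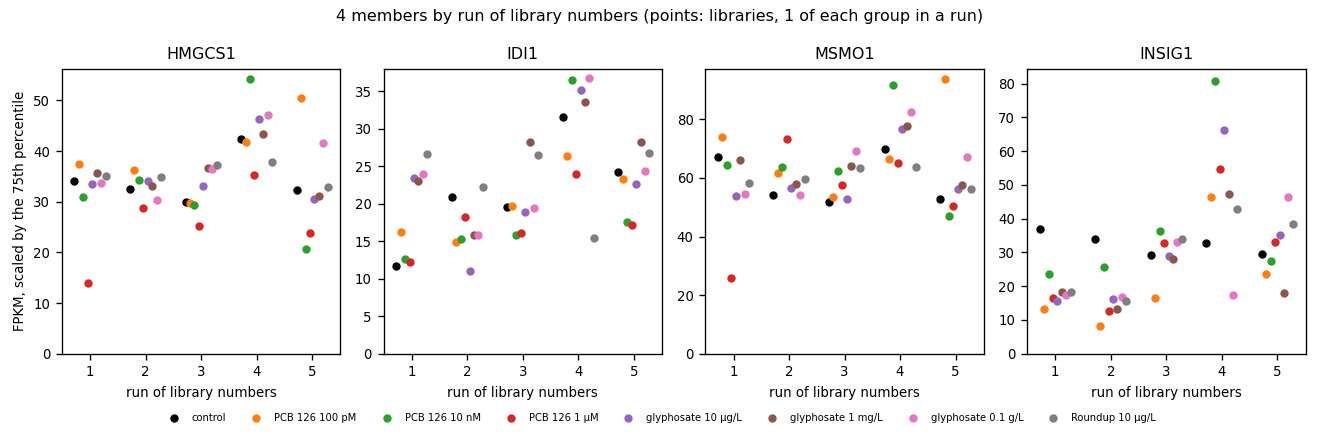
Scaled FPKM of transcripts named HMGCS1, IDI1, MSMO1 and INSIG1 by run of library numbers, with 1 point for each of the 8 treatment groups in a run. Points of run 4 stand highest in most groups, with INSIG1 at a median of 46.8 there and 15.9 in run 2.

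Co-variation of the members was described on scaled log2(FPKM + 1), each group centred on its mean, over 40 libraries that share depth and composition, so no p is given. The median Pearson r over 406 pairs of members was 0.25, beside 0.22 over all pairs of 9732 genes, and 14.3% of member pairs lay above the 90th percentile of all pairs. As deposited the medians were 0.65 and 0.61, and without the 9 libraries over the 30% limit 0.17 and 0.10 after scaling. The highest pair was HMGCS1 with MSMO1 (r = 0.92), then MSMO1 with SC5D (0.90) and GGPS1 with FDFT1 (0.89). By role the median was 0.54 for the 3 pairs of squalene to lanosterol, 0.37 for lanosterol to cholesterol, 0.33 for the mevalonate steps and 0.13 for SREBP control. Without the 9 libraries over the limit these medians were 0.26, 0.20, 0.27 and 0.15, so the order of the roles depended on those libraries. SQLE had the highest median r with the other members (0.54), while SREBF2 (-0.14) and EBP (-0.15) had the lowest.

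Other genes of the pathway were counted by lists. Of 8 genes of SREBP processing and degradation, TMEM97, an endoplasmic reticulum protein that binds NPC1, was called lower at 1 µM (1 of 8, background 1.87%), from 21.6 ± 4.66 to 8.53 ± 3.4 FPKM (SD, n = 5 each). Control libraries ran from 13.9 to 25.6 and those at 1 µM from 3.47 to 11.9, with no overlap. The log2 difference was -1.31 (SE 0.29, adjusted p = 0.014, limma) and -1.16 scaled (adjusted p = 0.00131), and the other 7 were not called. At 1 µM, 0 of 8 tested isoprenoid branch genes, 0 of 9 tested genes of cholesterol handling and LXR and 0 of 8 tested SREBP-1 fatty acid targets passed as deposited. CYP27A1, the sterol 27-hydroxylase, passed after scaling (0.76, adjusted p = 0.00748, limma), where 6.07% of all tested genes were called. Its values as deposited were 10.9 ± 2.45 FPKM in the control and 16.8 ± 2.65 at 1 µM. SCD, the stearoyl-CoA desaturase, had 218 ± 57 and 130.1 ± 54.5, a difference of -0.84 (adjusted p = 0.269). These lists were counted at 100 pM and 10 nM PCB 126 and in each herbicide comparison as well, and 0 genes of the 4 lists were called there, where all genes stood at 0% to 0.205%.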

How the data were processed

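Gene expression was measured by RNA sequencing of paired 75-base reads in 40 libraries, 5 in each of 8 groups assigned from the labels. The authors aligned reads with HISAT2 and assembled and quantified transcripts with StringTie, guided by GRCh38 and Ensembl release 89, and deposited 2 tables of FPKM per transcript, of 20 (PCB 126) and 25 (glyphosate) libraries, which share the 5 control libraries. Of the deposited values 4 (PCB 126 table) and 6 (glyphosate table) lay below 0, and the columns that hold them were therefore treated as a score in FPKM units, with those values set to 0. Transcripts were summed per gene name, which leaves out 35782 of 234960 transcripts that carry none. Read counts per library were not in these tables, so depth enters only through the FPKM, and precision is given by the spread over libraries. No value column was left unassigned (0).

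Genes with a variance over 1 were kept, and limma 3.58.1 in R 4.3.3 was run on log2(FPKM + 1) with 1 fit per table, Benjamini-Hochberg adjustment over all tested genes and a threshold of 0.05. The fit was checked on simulated data. Each library was also scaled by its 75th percentile or quantile normalized. The other alternatives were a pseudocount of 0.1, other filters, the most abundant transcript, 1 fit over 40 libraries, a linear model with a library-size term, a replicate block, leaving out libraries over the 30% limit and leaving out each library. Values by library are given for the 8 members with the smallest F-test p in each table and for the pairs INSIG1 and INSIG2, SREBF1 and SREBF2, and SOAT1 and SOAT2. TM7SF2, SQLE and NPC1 at 1 µM, MVK and DHCR7 at 100 pM, and TMEM97, CYP27A1 and SCD of the other lists are also given, chosen after their values were seen. The members and lists were chosen with earlier results of these data known. Replicate numbers follow accession order. Gene positions are the outer bounds of the deposited transcripts that carry the gene name (GRCh38). Promoter windows come from RefSeq (GRCh38.p14). Summaries and plots were made with Python 3.11.15, pandas 2.3.3, numpy 2.4.6 and matplotlib 3.10.9.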

Additional observations from a re-analysis of the deposited data

Results flagged for a closer look

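In groups of 5 libraries, a value was picked out where its gap to the nearest other library, divided by the range, passed Dixon's critical value. This gave 19 values among 239 groups of member values. A rate of 1 in 20 would give 11.9, but members share libraries, so the groups are not independent trials. A SOAT2 group with a single library above 0 passes by construction. Of the 19, 7 fell in libraries over the 30% limit on multiply aligned pairs.

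Control replicate 5, over that limit, was the lowest of its group for FDFT1 (26.1 FPKM, others from 46.7 to 54.0), SQLE (12.4, others from 23.7 to 25.7), CYP51A1 (30.3, others from 76.7 to 86.1) and NSDHL (4.12, others from 7.60 to 8.99). Glyphosate at 0.1 g/L replicate 2, also over it, was lowest for MVD (7.09, others from 12.3 to 13) and NSDHL (4.08, others from 7.02 to 8.16), and PCB 126 at 10 nM replicate 3 for NPC1 (6.62, others from 14.4 to 16.3).

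INSIG1 was highest in replicate 4 of 100 pM PCB 126 (54.9), 10 nM PCB 126 (88.1) and glyphosate at 10 µg/L (75.2), where the sums with spanning transcripts were 71.8, 96.1 and 80.8, also the highest, and IDI1 in replicate 4 at 10 nM (39.8, others from 9.36 to 17.5). Replicate 4 was also highest for SREBF1 with glyphosate at 1 mg/L (33.2, others from 16.7 to 20.3) and lowest for SCAP at 100 pM (9.08, others from 17.9 to 20.3). With nameless transcripts that span SCAP this library read 25.7, within the 21.4 to 27.2 of the others. EBP was highest in replicate 1 of glyphosate at 0.1 g/L (18.7, others from 2.30 to 4.14), and ABCA1 lowest in replicate 5 at 100 pM (6.13, others from 15.6 to 18.7). With the transcripts that span ABCA1 this library was the highest (19.7, others from 15.6 to 18.7), and with those that span EBP the EBP value was 19.5 (others from 6.86 to 14.2).

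SOAT2 had 1 library above 0 in each of 4 groups, with 0.0576 FPKM at 100 pM PCB 126, 0.0103 and 0.0374 with glyphosate at 1 mg/L and 0.1 g/L, and 0.0317 with Roundup. In 3 further groups it was above 0 in 2 or 3 libraries.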

How the results depend on the processing

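Depth in reads was not at hand, and 5 libraries a group set the precision. No alternative called a member in the herbicide comparisons, at 100 pM or at 10 nM PCB 126. Across the PCB 126 groups 1 member, LBR, was called after scaling, quantile normalization, with the linear model with a library-size term, and with scaling plus the replicate block. At 1 µM 1 member (LBR) was called after scaling, without the libraries over the 30% limit, and with scaling plus either the block or those libraries left out. Quantile normalization called 2 (LBR, NPC1) and the linear model 2 (LBR, SQLE). The cause was not tested.

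The SQLE difference at 1 µM, -0.021 as deposited, turned to 0.14 after scaling with or without the replicate block, 0.17 after quantile normalization, 0.28 in the linear model, 0.098 without the libraries over the limit and 0.20 with scaling as well. With the most abundant transcript NSDHL turned to 0.031 at 1 µM and 0.069 with Roundup, and NPC1 at 1 µM to -0.065.

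All genes called across the PCB 126 groups, 136 as deposited, numbered 90 with no filter, 88 for the most abundant transcript, 242 in 1 fit over 40 libraries, 270 with the replicate block, 266 without the libraries over the limit, 230 with nameless transcripts added, 436 in the linear model, 483 after scaling, 714 after quantile normalization, 663 with scaling and block and 477 with scaling without those libraries. At 10 nM the 20 calls (14 higher) became 69 (46 higher) after scaling, 184 (117) after quantile normalization, 113 (73) in the linear model, 37 with the block, 43 in 1 fit, 56 without the libraries, 32 with nameless transcripts, 97 with scaling and block and 68 with scaling without the libraries. At 1 µM the 182 (63 higher) became 592 (247 higher), 1085 (532) and 823 (448) under the first 3 of these, then 357, 298, 520, 331, 764 and 712. Single genes were called with no filter across the herbicide groups (1), with glyphosate at 10 µg/L (1) and between Roundup and glyphosate (1), and at 0.1 g/L after scaling (1) or quantile normalization (1).

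Leaving out 1 library at a time called 0 to 0 members throughout and 101 to 208 genes across the PCB 126 groups, 0 to 0 at 100 pM, 15 to 35 at 10 nM and 118 (without Control replicate 4) to 366 (without Control replicate 5) at 1 µM. In the herbicide comparisons it called 0 to 1 across groups, with glyphosate at 10 µg/L, at 0.1 g/L and with Roundup, and 0 to 2 at 1 mg/L and between Roundup and glyphosate. LBR at 1 µM then ran from -0.78 to -0.52 and SQLE from -0.21 to 0.12. The adjusted p of LBR at 1 µM ranged from 0.0718 to 0.536 over these.

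The replicate block used the run of library numbers. Same-run deviations correlated with a median of 0.049 (-0.17 to 0.31), and 27.9% of these pairs were over 0.1, so the samples were not taken as paired, though 29 of 40 libraries correlated best with their own run, a hint from the data that libraries of a run vary together. The main fit held no block, so its SE and p include any variation between runs. With the block 0 members were called. Of the alternatives, 3 were chosen after the data were seen: nameless transcripts added to the gene of their locus, and scaling with the block or without the libraries over the limit.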
